A study of Rattus norvegicus with 9 samples.

Results

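The bone morphogenetic protein (BMP) and activin ligands and their secreted antagonists were followed as a family of 10 genes, 6 ligands (Bmp2, Bmp3, Bmp4, Bmp7, Inhba, Inhbb) and 4 antagonists (Fst, Grem1, Nog, Sostdc1). They were taken by name, and every probe set whose platform annotation gives exactly 1 of these symbols was used, which gave 13 probe sets of the 31099 on the array, or 10 of the 14217 genes with such a probe set. The arrays held RNA from embryos of Sprague-Dawley rats with no transgene or drug, all at embryonic day 13, in 3 groups of 3. The Wolffian duct (WD), an epithelial tube, runs along the trunk of the embryo and was dissected without enzyme, about 100 ducts to a pool. The ureteric bud (UB) is the branch of that duct that has entered the kidney, and about 100 buds a pool were freed from the kidney with mild trypsin. The remaining group was the duct left with adhering mesodermal cells (WD+IM in the sample titles), about 50 to a pool. Digestion and tissue cannot be told apart in the comparisons with the UB. The arrays of a tissue are labelled biological replicates, so the tests measure the spread between pools of embryos.

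BMPs and activins are dimers of the transforming growth factor beta superfamily that bind pairs of type I and type II serine/threonine kinase receptors on the cell surface. The receptors phosphorylate SMAD proteins, with SMAD1, SMAD5 and SMAD9 mainly serving BMPs and SMAD2 and SMAD3 mainly serving activins and TGF-beta, and these enter the nucleus with SMAD4. Antagonists act outside the cell by holding the ligand away from its receptor. In the early kidney, BMP and activin signals are known to restrain budding from the duct, and gremlin, the product of Grem1, is required locally for the bud to grow out.

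The signal of a probe set is its brightness in intensity units on a linear scale. A difference is given as log2(signal + 46), the first-named tissue minus the second, with its standard error (SE), where 46 is the 10th percentile of all values and makes differences of weak signals too small. A gene was called where its adjusted p from limma, corrected by Benjamini-Hochberg over the 20330 probe sets tested, was under 0.05. Of the 10 genes, 8 passed the filter on weak signals, and Bmp3 and Inhbb did not. The 3 comparisons share arrays, so their results are not independent of each other.

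Bmp2, Bmp4, Inhba, Grem1 and Nog were the genes of the family called lower in UB than WD+IM. The stretches of 250 bases before the transcription start were available for 4 of them and are shown because these genes moved together in that comparison. They are given 5′ to 3′ on the coding strand from RefSeq, build GRCr8, with matches to 4 short motifs in capitals.
Bmp4, chr15:22101934-22102183, minus strand: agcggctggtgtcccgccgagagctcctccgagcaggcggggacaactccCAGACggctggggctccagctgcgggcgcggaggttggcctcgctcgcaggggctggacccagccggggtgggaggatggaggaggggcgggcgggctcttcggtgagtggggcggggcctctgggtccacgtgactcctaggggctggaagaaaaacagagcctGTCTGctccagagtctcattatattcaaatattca
Inhba, chr17:53804509-53804758, minus strand: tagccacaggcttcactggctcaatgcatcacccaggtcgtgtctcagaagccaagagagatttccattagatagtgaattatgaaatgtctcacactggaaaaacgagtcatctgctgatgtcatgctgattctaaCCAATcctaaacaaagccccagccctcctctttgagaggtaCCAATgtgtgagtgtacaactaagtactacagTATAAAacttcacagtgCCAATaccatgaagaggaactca
Grem1, chr3:120978320-120978569, minus strand: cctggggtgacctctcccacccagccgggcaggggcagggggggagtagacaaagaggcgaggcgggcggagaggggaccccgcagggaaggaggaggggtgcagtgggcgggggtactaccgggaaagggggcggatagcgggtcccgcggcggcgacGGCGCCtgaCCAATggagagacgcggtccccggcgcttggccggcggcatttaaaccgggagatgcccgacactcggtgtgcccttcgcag
Nog, chr10:74627502-74627751, minus strand: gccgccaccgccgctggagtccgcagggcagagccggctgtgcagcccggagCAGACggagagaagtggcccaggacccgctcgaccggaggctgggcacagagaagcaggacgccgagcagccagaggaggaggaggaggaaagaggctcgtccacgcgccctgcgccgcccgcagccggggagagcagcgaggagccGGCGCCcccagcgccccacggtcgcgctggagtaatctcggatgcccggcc
The motifs searched on both strands were CAGAC, the core of the SMAD-binding element, GGCGCC, a GC-rich site bound by SMADs, TATAAA and CCAAT, and no matches overlapped. The Bmp4 stretch held CAGAC at 200 and 35 bases before the start, the nearer match on the opposite strand. In the Nog stretch CAGAC lay at 198 and GGCGCC at 51 bases, and the Grem1 stretch held GGCGCC at 91 and CCAAT at 82 bases. The Inhba stretch was the only printed stretch with TATAAA, at 40 bases, and it held CCAAT at 113, 72 and 23 bases. Of all 33469 such stretches in the RefSeq table, 42.9% held CAGAC, 8.69% GGCGCC, 12.9% TATAAA and 34.0% CCAAT. GC content was 66.4% for Bmp4, 43.6% for Inhba, 72% for Grem1 and 74% for Nog. For Bmp4 and Inhba the start used lies inside the annotated span of the gene, which has other starts. Bmp2 was named without its sequence.

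The arrays differed in technical measures that move with tissue. The bioC to bioB ratio of the spiked controls was 2.57 to 3.11 on all 3 UB arrays and on WD+IM replicate 3, called the high spike set here, and 0.915 to 1.24 on the other 5, the low set. The 10th percentile of signal was 26.9 to 35.3 in the high set and 55.7 to 76.8 in the low set, and median signals ran from 534 to 897. The ratio of 3′ to 5′ beta-actin signal, a measure of RNA integrity, was 1.48 to 2.30 in the UB, 2.19 to 4.87 in the WD and 1.47 to 1.92 in WD+IM. The part of these measures in the differences below was not tested, but each difference was refitted with the spike set as a term and with the actin ratio as a covariate. UB and WD share no spike set, so no value within a set exists for them. Only WD+IM has arrays in both sets, so the spike term rests on its replicate 3 against its other arrays. The spike-term differences between UB and WD depend on that array. Within the high set, UB against WD+IM compares 3 UB arrays with WD+IM replicate 3 alone, as the spike term also does there. For that comparison within the high set, only the size of a difference is given. Centring arrays on their medians moved the median difference of all probe sets between UB and WD from -0.12 to 0.34, and between UB and WD+IM from -0.05 to 0.32. The split of called probe sets between UB and WD was 2297 higher and 3776 lower as deposited, 2526 and 2433 with quantile normalization and 5835 and 1530 with median centring. Between UB and WD+IM it was 2228 and 2948, 2306 and 2364, and 4610 and 1792, and between WD+IM and WD 1142 and 1436, 1413 and 1433, and 1242 and 923.

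**Figure D1:**
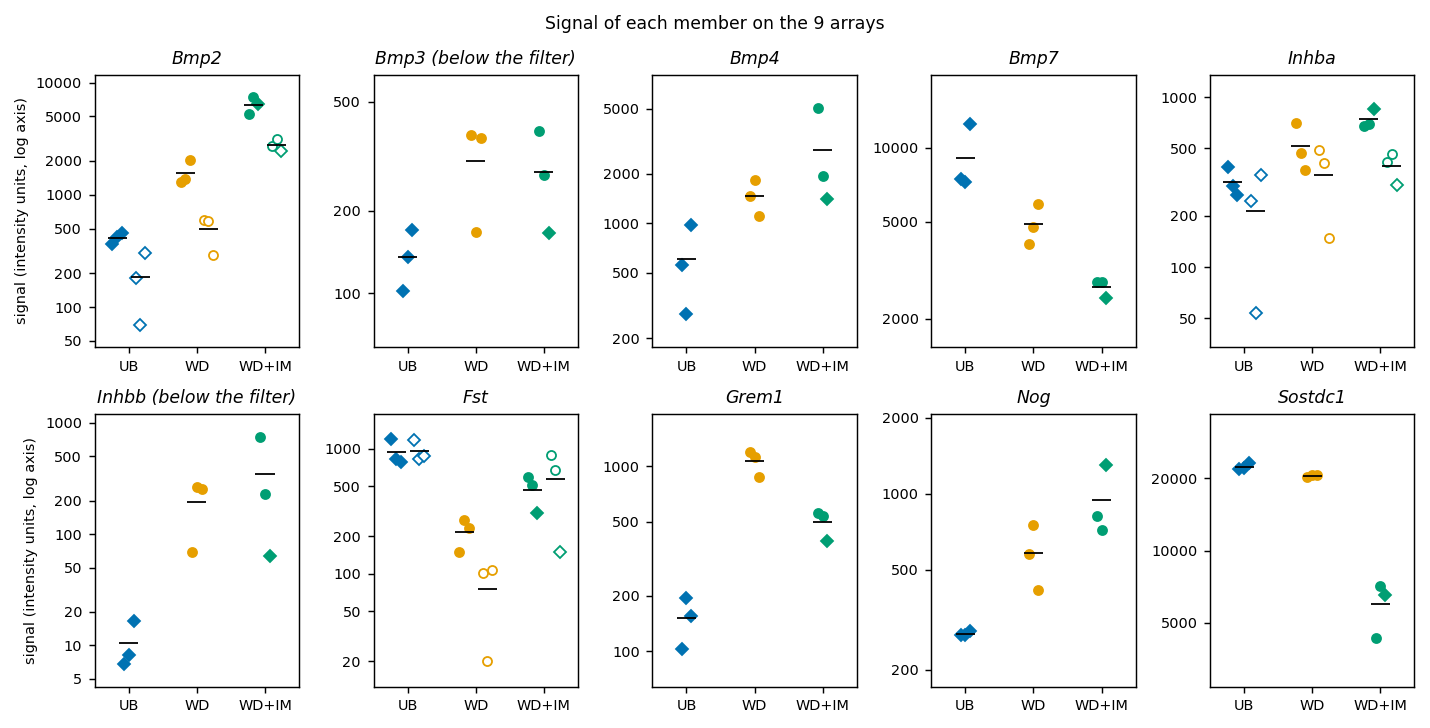
Signal of each gene on the 9 arrays, in intensity units on log axes that differ between panels, for UB, WD and WD+IM. Filled points are the probe set used for the gene and open points its other probe set, diamonds are arrays of the high spike set, and bars are group means; the Bmp2 arrays stand in 3 separate steps, 367 to 453, 1297 to 2034 and 5249 to 7361.

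Between the bud and the duct it grew from, Bmp7 and Fst were higher in the UB, and Bmp2, Bmp4 and Grem1 were lower. These 5 of the 8 genes tested stand against a background of 33.0% of all 10809 genes called, 13.3% higher and 19.6% lower in the UB. The median difference of the 8 was -0.76, against -0.08 for all genes. With median centring or quantile normalization the split was 2 higher and 2 lower, Bmp4 no longer being called.

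When the duct kept its mesoderm, Bmp2 was higher and Bmp7 and Sostdc1 were lower than in the bare duct. These 3 of 8 compare with 14.7% of all genes called, 6.49% higher and 8.23% lower. The median difference was 0.59, against -0.01 for all genes.

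Between the UB and WD+IM, Bmp7 and Sostdc1 were higher in the UB and Bmp2, Bmp4, Inhba, Grem1 and Nog lower, which left Fst as the gene not called. These 7 of 8 compare with 30.3% of all genes called, 13.6% higher and 16.6% lower. The median difference was -1.30, against -0.01 for all genes. The split of 2 higher and 5 lower became 3 and 2 with quantile normalization and 3 and 4 with median centring. In pieces of whole tissue, fewer cells of a type and less RNA per cell cannot be told apart, which holds for every difference here.

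**Figure D2:**
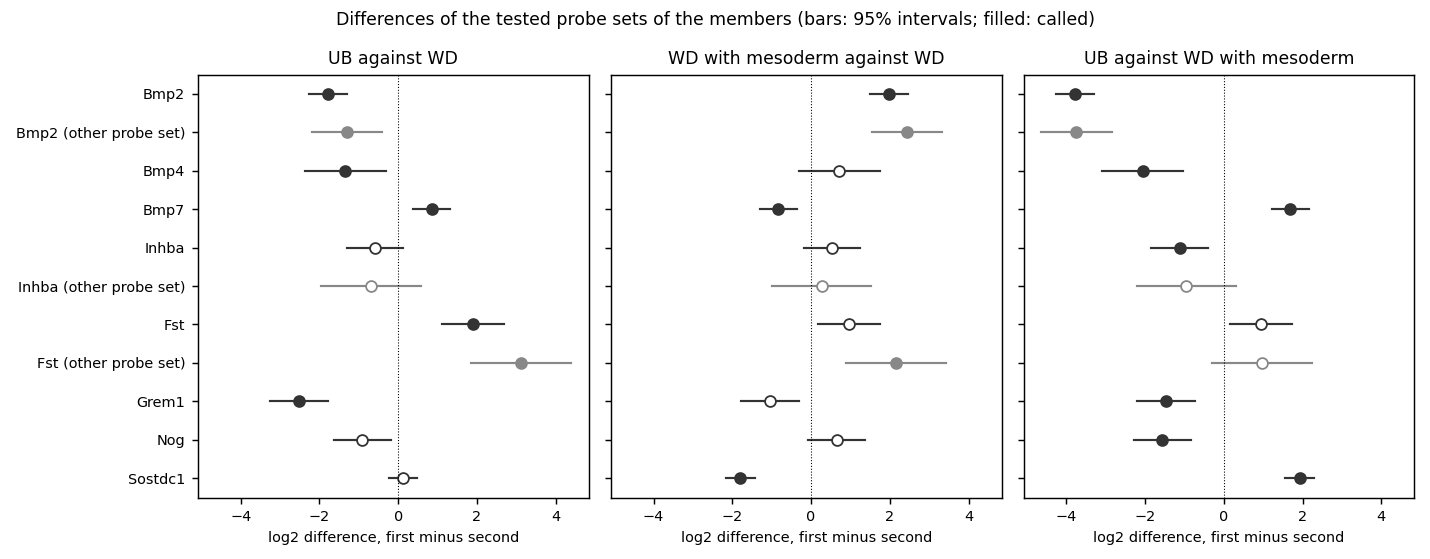
Difference in log2(signal + 46) for the 8 genes tested in the 3 comparisons, first tissue minus second, with 95% intervals. Filled points were called, and grey points are the other probe set of Bmp2, Inhba and Fst; Bmp2 lies at -1.79, 1.99 and -3.78, the widest spread between tissues among the 8 genes.

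Bmp2 encodes a BMP ligand that is a strong inducer of mesenchymal differentiation and acts on epithelium and mesoderm. Its chosen probe set, that with the highest mean log2 signal, read 367, 424 and 453 on the UB arrays, 1297, 1394 and 2034 on the WD arrays, and 5249, 7361 and 6382 on the WD+IM arrays. The tissues rose in steps without overlap, with means of 415 ± 43.7, 1575 ± 400 and 6330 ± 1057 (SD, n = 3 each). The UB was lower than the WD by a ratio of 3.80 (log2 difference -1.79 ± 0.22 SE, limma adjusted p = 0.00012). WD+IM was higher than the WD by a ratio of 4.02 (1.99 ± 0.22 SE, limma adjusted p = 0.000169). Between the ends of the series the ratio was 15.3 (-3.78 ± 0.22 SE, limma adjusted p = 1.2e-07). The other probe set had the same order of means, with signals of 181, 69.8 and 304 in the UB, 599, 586 and 289 in the WD, and 2745, 3145 and 2434 in WD+IM. It overlapped between UB and WD and still gave calls in all 3 comparisons, at -1.30 ± 0.41, 2.45 ± 0.41 and -3.74 ± 0.41 (SE). Bmp2 kept its call under every alternative that was run, in all 3 comparisons.

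Bmp4 encodes a BMP ligand made by mesenchyme around the duct and bud in the early kidney. Its signals were 559, 281 and 972 in the UB, 1460, 1845 and 1104 in the WD and 5042, 1949 and 1403 in WD+IM. The UB arrays were lowest without overlap with either tissue, and WD and WD+IM overlapped, with 1 high array, WD+IM replicate 1, setting the mean and its spread (2798 ± 1962 SD, n = 3). The difference from UB to WD was just past the threshold, at -1.34 ± 0.47 SE with a limma adjusted p of 0.0484. It lost its call in 14 of 23 alternatives, with adjusted p from 0.0176 to 0.923, the highest with the spike term, where the difference was -0.20 ± 0.78 SE. That term rests on WD+IM replicate 3 against the other WD+IM arrays, among them the high replicate 1, so this value depends on WD+IM arrays. Without WD replicate 1, 2 or 3 the adjusted p was 0.102, 0.147 and 0.0537, and without UB replicate 1 or 2 it was 0.105 and 0.165. The difference between UB and WD+IM was -2.06 ± 0.47 SE (limma adjusted p = 0.00614), and it was not called with the spike term (0.239). Within the high spike set it was -1.31. WD+IM and WD differed by 0.72, with a 95% interval from -0.30 to 1.74 (limma adjusted p = 0.343).

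Bmp7 encodes the BMP made by duct and bud epithelium and by nephron progenitors, where it maintains progenitor survival. It ran opposite to Bmp2 across the tissues. Signals were 7434, 7259 and 12465 in the UB, 4049, 4753 and 5900 in the WD, and 2827, 2829 and 2445 in WD+IM. The 3 tissues did not overlap, although UB replicate 3 stood well above the other 2 UB arrays. The mean of the UB was 1.85 times that of the WD (0.85 ± 0.21 SE, limma adjusted p = 0.0117). That difference was 1.06 ± 0.40 SE with the spike term (adjusted p = 0.186), 0.36 ± 0.22 SE with the actin covariate (0.269) and 1.31 ± 0.23 SE with median centring (0.000413). WD+IM was lower than the WD by a ratio of 1.81 (-0.84 ± 0.21 SE, limma adjusted p = 0.0239). This call was lost in 9 of 24 alternatives, among them without WD replicate 2 (0.064), WD replicate 3 (0.0719), WD+IM replicate 2 (0.0533) and WD+IM replicate 3 (0.077), and within the low spike set (0.0708). The spike term, the low spike set and the fit without WD+IM replicate 3 all gave -0.77, since each sets that array apart. A difference of this size cannot pass the 2-fold minimum, which is also counted. With the actin covariate the difference between WD+IM and WD was -1.41 ± 0.24 SE. The difference between UB and WD+IM, 1.68 ± 0.21 SE (limma adjusted p = 8.92e-05), kept its call in all 24 alternatives.

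Bmp3, whose product lacks the usual activity of BMPs and can oppose it, was weak in every tissue. It read 102, 136 and 171 in the UB, 376, 167 and 369 in the WD and 392, 270 and 166 in WD+IM, and no array passed the filter's level. Fitted without the filter, its differences were -0.89, -0.12 and -0.78 in the order of comparisons above, with adjusted p of 0.199, 0.919 and 0.325 from limma.

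Inhba encodes the subunit that pairs with itself to form activin A. The chosen probe set read 390, 298 and 264 in the UB, 699, 469 and 371 in the WD and 680, 693 and 849 in WD+IM. The UB and WD+IM did not overlap, and the WD overlapped both. The call between UB and WD+IM, -1.12 ± 0.33 SE (limma adjusted p = 0.0254), was lost in 11 of 24 alternatives. These included quantile normalization (0.274), the spike term (0.108) and leaving out UB replicate 2 (0.0731), UB replicate 3 (0.0826), WD+IM replicate 2 (0.0573) or WD+IM replicate 3 (0.0719). The other probe set read 244, 53.9 and 348 in the UB, 485, 411 and 149 in the WD and 416, 463 and 304 in WD+IM. All 3 tissues overlapped on it and no comparison was called, with -0.95 ± 0.58 SE (adjusted p = 0.271) between UB and WD+IM. The probe sets of Inhba followed each other less closely over the 9 arrays (Pearson's r = 0.60) than those of Bmp2 (0.93) or Fst (0.89). UB and WD differed by -0.59 on the chosen probe set, with a 95% interval from -1.31 to 0.12, and by 0.08 with quantile normalization, neither of them called. WD+IM and WD differed by 0.53, with an interval from -0.19 to 1.25.

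Inhbb encodes the subunit of activin B. Its signals were 6.80, 8.24 and 16.6 in the UB, 68.9, 263 and 251 in the WD and 751, 227 and 64.1 in WD+IM. All UB arrays lay below the pseudocount of 46 and below every array of the other tissues, and the lowest WD+IM array was replicate 3, which is in the high spike set with the UB. Inhbb passed the filter's level on 1 array. Without the filter UB was lower than WD+IM by 2.35 on the log2 scale (-2.35 ± 0.66 SE, limma adjusted p = 0.0257). The difference from the WD was -1.96 ± 0.66 SE, with an adjusted p of 0.053. No detection calls were used, so a signal this low is not told from background here.

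Among the antagonists, Fst and Grem1 gave opposite patterns. Fst encodes follistatin, which binds activins tightly and some BMPs less so. Its chosen probe set read 1189, 826 and 785 in the UB, 150, 268 and 232 in the WD and 594, 512 and 308 in WD+IM. The tissues did not overlap, and the order from high to low was UB, WD+IM, WD. The UB exceeded the WD by a ratio of 4.3 (1.90 ± 0.36 SE, limma adjusted p = 0.00253), and the call was kept in all 23 alternatives that tested Fst. Inhba, Fst, Grem1 and Nog did not pass the stricter filter on weak signals, so that alternative is not counted for them. The other probe set read 1178, 821 and 873 in the UB, 100.8, 19.9 and 107 in the WD and 893, 673 and 149 in WD+IM. Its difference between UB and WD was larger, 3.12 ± 0.58 SE (limma adjusted p = 0.00215). Between WD+IM and WD the probe sets disagreed on the call, with 0.96 ± 0.36 SE (adjusted p = 0.107) on the chosen probe set and 2.16 ± 0.58 SE (0.0296) on the other. UB and WD+IM differed by 0.94 ± 0.36 SE (limma adjusted p = 0.0794), and this reached a call with quantile normalization (0.0208) and median centring (0.0133). Within the high spike set, against WD+IM replicate 3 alone, the lowest WD+IM array, the difference was 1.45.

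Grem1 encodes gremlin, which binds BMP2, BMP4 and BMP7. It was highest in the bare duct, with 1199, 1125 and 871, against 558, 540 and 393 in WD+IM and 103, 194 and 156 in the UB. No array of a tissue overlapped another tissue. The UB was lower than the WD by a ratio of 7.06, the largest ratio between these tissues among the genes' chosen probe sets (-2.51 ± 0.34 SE, limma adjusted p = 0.000242). With the spike term this was -2.07 ± 0.60 SE, with an adjusted p of 0.0904. The UB was also lower than WD+IM (-1.48 ± 0.34 SE, limma adjusted p = 0.00653), a call lost with quantile normalization (-0.96 ± 0.33 SE, 0.0523) and with the spike term (0.152). Within the high spike set that difference was -1.19. WD+IM lay below the WD on every array, by -1.03 ± 0.34 SE with a limma adjusted p of 0.0667. The adjusted p fell below the threshold with a larger pseudocount (0.0452) and without the mean-variance trend (0.0208). It also did so with the mean of probe sets (0.0405), which tests genes. Grem1 has a single probe set, so its difference was unchanged there. These were 3 of 23 alternatives, over which the difference ran from -1.17 to -0.85 and the limma adjusted p from 0.0208 to 0.42. The adjusted p was 0.111 with median centring, 0.165 with the spike term and 0.106 with the replicate block.

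Nog encodes noggin, which blocks BMP2, BMP4 and, more weakly, BMP7. Its signals were 275, 274 and 285 in the UB, 579, 749 and 415 in the WD and 816, 715 and 1298 in WD+IM. The UB arrays were nearly equal and lowest, and WD and WD+IM overlapped. UB and WD+IM differed by -1.57 ± 0.33 SE (limma adjusted p = 0.00406), a call lost with quantile normalization (-1.05 ± 0.38 SE, 0.0702). The difference between UB and WD was -0.92 ± 0.33 SE and just missed the threshold (limma adjusted p = 0.0554). It passed in 4 of 22 alternatives. These were without the mean-variance trend (0.0307), with array weights (0.0242), with the mean of probe sets (0.0355) and without WD replicate 3 (0.0342). The difference was smaller with quantile normalization (-0.23 ± 0.38 SE, 0.691), median centring (-0.46 ± 0.37 SE, 0.356) and the actin covariate (-0.68 ± 0.46 SE, 0.318). With the spike term it was larger (-1.65 ± 0.55 SE, 0.142), and none of these was called. Nog has a single probe set, so the mean of probe sets, which tests genes, left its difference unchanged. WD+IM and WD differed by 0.65, with a 95% interval from -0.08 to 1.37.

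Sostdc1 encodes a secreted antagonist of BMP and Wnt signals, also known as USAG-1, that kidney tubules express. The UB arrays read 21898, 22075 and 23211, the WD arrays 20172, 20608 and 20626, and the WD+IM arrays 4338, 7145 and 6511. Every UB array lay above every WD array, but by little, with a difference of 0.13 and a 95% interval from -0.23 to 0.49 (limma adjusted p = 0.58). That difference was 0.59 ± 0.24 SE with median centring (0.0669) and -0.09 ± 0.30 SE with the spike term (0.904), neither of them called. WD+IM was far below both the UB and the WD. It lay at -1.79 ± 0.16 SE against the WD (limma adjusted p = 6.69e-05), and the UB exceeded it by 1.92 ± 0.16 SE (3.04e-06). These calls were kept in all 24 alternatives of each comparison.

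Marker genes of the tissues moved alongside the family, and their counts stand beside the shares of all genes called given above. These were 13.3% higher and 19.6% lower in UB than WD, and 6.49% higher and 8.23% lower in WD+IM than WD. The 9 of 10 duct epithelial markers on the array (Cdh1, Epcam, Krt8, Krt18, Pax2, Pax8, Gata3, Emx2, Lhx1) were all lower in WD+IM than in the WD, with a median of -1.66, close to the -1.79 of Sostdc1. Their summed signal was 186504 to 197127 in the UB, 210969 to 231113 in the WD and 61059 to 94048 in WD+IM. In UB against WD 1 of the 9 was higher and 3 were lower, with a median of -0.15, beside 0.13 for Sostdc1. The 10 mesenchymal markers summed to 15834 to 21806 in the UB, 109026 to 152962 in the WD and 262861 to 314750 in WD+IM, the same order as Bmp2, and none of them had a group mean below 46. The bare duct also carried mesenchymal marker signal, and all 10 were lower in UB than WD. The median difference there was -2.77, beside -1.79 for Bmp2 and -2.51 for Grem1. Between WD+IM and WD 6 of the 10 were higher and 0 lower, with a median of 1.21. Bmp2 was higher there too (1.99), whereas Grem1 lay in the opposite direction (-1.03) and was not called. The 7 endothelial markers on the array were all higher in WD+IM than in the WD (median 3.19), with sums of 1352 to 2199 in the UB, 2882 to 4387 in the WD and 32945 to 33829 in WD+IM. The 5 bud tip markers (Ret, Wnt11, Etv4, Etv5, Gfra1) were all higher in UB than WD, as Fst and Bmp7 were, and Wnt11 had a mean of 25.2 in the WD, below 46. The part of these cell types in the differences of the family was not tested.

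**Figure D3:**
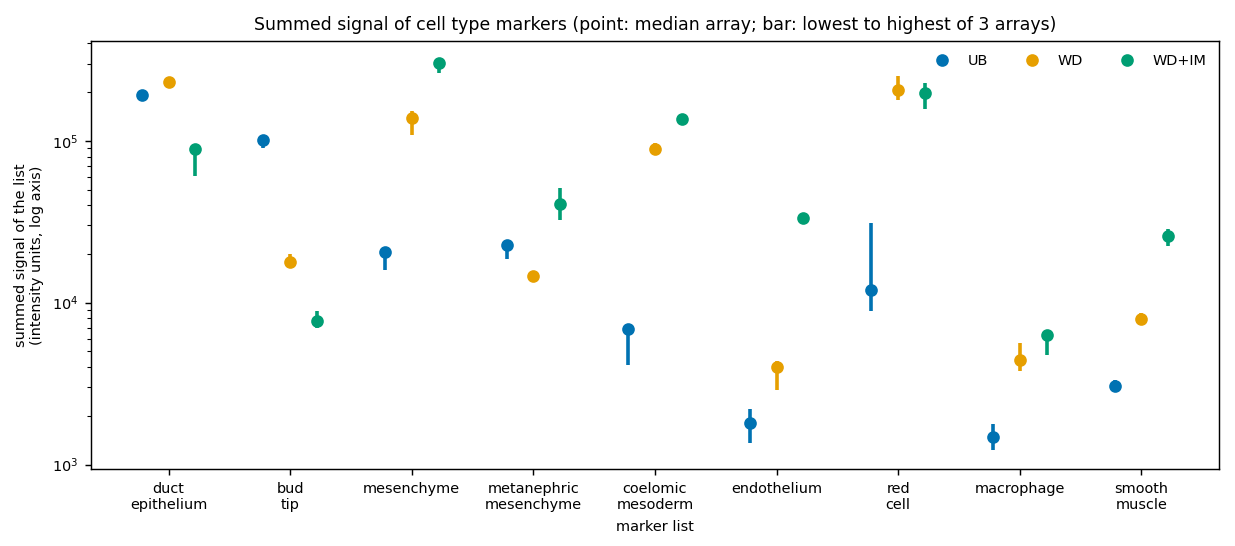
Summed signal of each marker list in UB, WD and WD+IM, in intensity units on a log axis; points are medians of 3 arrays and bars run from the lowest to the highest array. The mesenchymal sum rises from 15834 to 21806 in the UB to 262861 to 314750 in WD+IM, and the duct epithelial sum is lowest in WD+IM.

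Other marker lists were counted in the same way. Of the 4 coelomic mesoderm genes, 4 were lower in UB than WD and 1 was higher in WD+IM than in the WD. Of 5 smooth muscle genes tested, 4 were lower in UB than WD and 3 higher in WD+IM. All 5 red cell genes and 5 of 6 macrophage genes tested were lower in UB than WD, and none of either list was called between WD+IM and WD, where Bmp2 was called. At an unadjusted limma p under 0.05 these were 0 of the red cell and 2 of the macrophage genes. The red cell genes Ahsp and Epb42 had UB means below 46. Of 4 metanephric mesenchyme genes tested, 2 were higher and 1 lower in UB than WD, and 3 were higher in WD+IM than in the WD.

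Over the 9 arrays, Bmp7 followed Inhba inversely (Pearson's r = -0.95) and Bmp2 inversely (-0.91), and Fst followed Grem1 inversely (-0.91). Bmp2 and Nog rose together (0.88), and so did Bmp7 and Sostdc1 (0.82), whereas Grem1 and Sostdc1 had little relation (-0.16). These are descriptions over arrays that share 3 tissues. Among the 10728 genes compared, the profiles most like Bmp2 were Tgfb1i1, Pbx3 and Cavin3 (each r = 0.99), and those most like Sostdc1 were Myo5b, Sfta2 and Esrp1 (each 0.99). For Bmp7 they were Frem2 (0.98), Asns (0.98) and Tnfrsf12a (0.97), and for Bmp4 Csrnp3 (0.97), Apobec3 (0.94) and Gigyf1 (0.94). Grem1 was nearest to Ptpn13, Myof and Cilp2 (each 0.98), and Fst to Tars1 (0.98), Sh2b2 (0.97) and Usp14 (0.96). Nog was nearest to Lgalsl (0.98), Col25a1 (0.97) and Ccng2 (0.97), and Inhba to Tmem164 (0.97), Fndc3c1 (0.97) and Smad9 (0.96).

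The other genes of the pathway give the setting in which the family was measured. The shares of all genes called, to be read beside each count of a list, were 13.3% higher and 19.6% lower in UB against WD, 6.49% and 8.23% in WD+IM against WD, and 13.6% and 16.6% in UB against WD+IM. Of 7 further ligands tested, 4 were lower and 0 higher in UB than WD, with a median of -1.04 beside -0.97 for the 4 ligands of the family tested. They were Tgfb3 (-2.30 ± 0.33 SE), Tgfb1 (-2.34 ± 0.43 SE), Tgfb2 (-2.21 ± 0.55 SE) and, named after its value was seen, Inha (-0.92 ± 0.27 SE), which encodes the subunit that turns activins into inhibins. The Tgfb genes encode the TGF-beta ligands, and with the spike term Tgfb1 was -1.73 ± 0.76 SE (adjusted p = 0.258) and Tgfb2 -2.34 ± 1.03 SE (0.262), neither of them called. The Tgfb2 difference was as large as before with a wider error there, and with the actin covariate it was -1.35 ± 0.67 SE (0.184). Tgfb1 was stepped like Bmp2, with means of 13.3, 260 and 1520 in UB, WD and WD+IM, and was higher in WD+IM than in the WD by 2.36 ± 0.43 SE (limma adjusted p = 0.0036), and by 2.56 ± 0.67 SE with the actin covariate (0.0564). In that comparison Gdf11, the other ligand called, was lower (-0.59 ± 0.17 SE, limma adjusted p = 0.0377, lost in 14 of 24 alternatives). Between UB and WD+IM 1 ligand was higher and 4 lower, with a median of -1.48 beside -1.59. The higher one was Gdf11 (0.80 ± 0.17 SE), and Bmp6 (-1.48 ± 0.42 SE) joined the Tgfb genes, both named after their values were seen. The Tgfb differences there were -4.70 ± 0.43, -2.75 ± 0.33 and -3.11 ± 0.55 (SE) for Tgfb1, Tgfb3 and Tgfb2. With the spike term Gdf11 was not called (adjusted p = 0.153). Within the high spike set the differences were 0.57 for Gdf11 and -3.20 for Tgfb2.

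**Figure D4:**
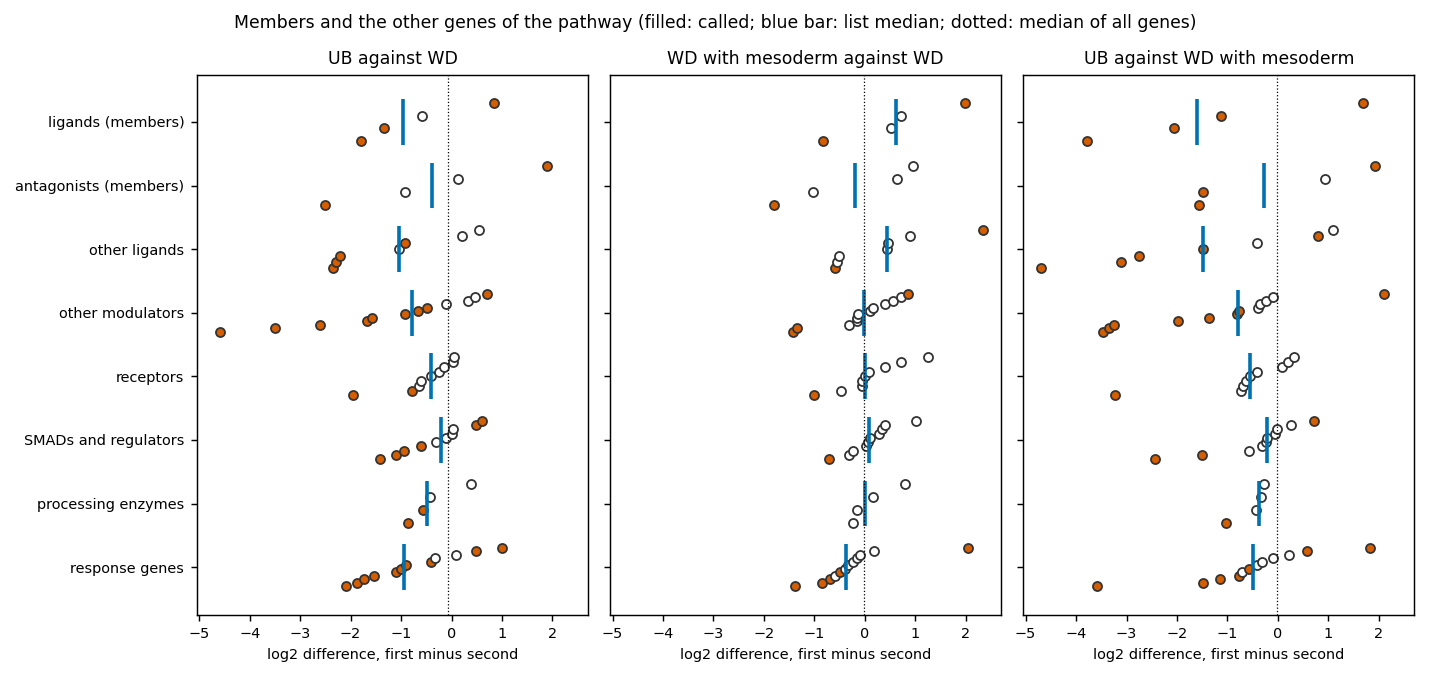
Difference in log2(signal + 46) of each tested gene of the pathway lists in the 3 comparisons, first tissue minus second. Filled points were called, blue bars are list medians and dotted lines the median of all genes; in UB against WD the list medians run from -0.21 for the SMADs to -1.04 for the other ligands.

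Of 12 further antagonists and modulators, 8 were lower and 1 higher in UB than WD, where 19.6% and 13.3% of all genes were (median -0.79, beside -0.39 for the 4 antagonists of the family). Nbl1, a BMP antagonist of the same cystine-knot family as gremlin, had means of 268 in the UB, 7495 in the WD and 3030 in WD+IM. This is the order of Grem1, and Nbl1 was called in each comparison (-4.60 ± 0.25, -1.35 ± 0.25 and -3.25 ± 0.25 SE). Chrd, which encodes the BMP antagonist chordin, was lower in UB than WD (-3.51 ± 0.38 SE, limma adjusted p = 4.12e-05). Ltbp1, which encodes a protein that holds latent TGF-beta in the matrix, was stepped like Bmp2, with means of 2133, 13448 and 23869. Rgmb, which encodes a BMP co-receptor, had the order of Bmp7, with means of 9980, 6280 and 2268, and was the gene of the list called higher in the UB in both comparisons (0.70 ± 0.19 and 2.11 ± 0.19 SE). The first of these Rgmb calls was lost with the spike term (0.54 ± 0.36 SE, adjusted p = 0.466), the actin covariate (0.48 ± 0.26 SE, 0.213) and without UB replicate 1 (0.0514), UB replicate 2 (0.0646) or WD replicate 1 (0.057). Between WD+IM and WD 1 gene of the list was higher, Ltbp1 (0.85 ± 0.18 SE), and 2 lower, Nbl1 and Rgmb (-1.42 ± 0.19 SE), with a median of -0.01. Here Nbl1 was not called with the actin covariate (-1.26 ± 0.39 SE, adjusted p = 0.104), nor Ltbp1 within the low spike set (0.78 ± 0.21 SE, 0.0542), with differences close to those above and wider errors. Between UB and WD+IM 1 was higher and 7 lower, with a median of -0.80.

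Of 9 receptors tested, 2 were lower in UB than WD, Eng (-1.96 ± 0.48 SE) and Acvr2b (-0.79 ± 0.21 SE), and 0 were higher, which is near the 19.6% of all genes that were lower. Eng encodes endoglin, an endothelial co-receptor, and with the spike term its difference was about as large with a wider error (-1.80 ± 0.89 SE) and not called (adjusted p = 0.32). Acvr2b encodes a type II receptor for activins, and its call was lost with the spike term (-0.62 ± 0.39 SE, adjusted p = 0.431), with median centring (-0.33 ± 0.25 SE, 0.307), without UB replicate 1 (0.0627) and without WD replicate 2 (0.0527). Acvr2b was lower in WD+IM than in the WD (limma adjusted p = 0.00745), the 1 receptor called there, and with the actin covariate it was at -1.16 ± 0.31 SE and not called (0.0641). Eng was the 1 receptor called between UB and WD+IM (-3.22 ± 0.48 SE, and -3.12 within the high spike set). The receptor medians were -0.41, 0.00 and -0.56 in the order of comparisons above. Of 10 SMADs and SMURFs, 2 were higher and 4 lower in UB than WD, against 13.3% and 19.6% of all genes (median -0.21). Smad5 (-1.11 ± 0.16 SE), Smad9 (-1.42 ± 0.37 SE), the inhibitory Smad7 (-0.93 ± 0.21 SE) and Smad3 (-0.61 ± 0.18 SE) were lower, and Smad1 (0.48 ± 0.15 SE) and Smad2 (0.61 ± 0.17 SE) higher, Smad1, Smad2 and Smad3 being named here after their values were seen. Smad5 kept its call in the alternatives run, whereas Smad7, Smad9 and Smad1 lost theirs with the spike term. The differences of Smad7 (-1.19 ± 0.39 SE, adjusted p = 0.128) and Smad9 (-1.44 ± 0.69 SE, 0.303) were as large there with wider errors, and that of Smad1 was smaller (0.22 ± 0.27 SE, 0.729). With the actin covariate Smad7 was -0.66 ± 0.27 SE (0.118) and Smad9 -0.71 ± 0.42 SE (0.261), and with median centring Smad7 was -0.47 ± 0.25 SE (0.151). Smad9 was also lost with quantile normalization (-0.77 ± 0.42 SE, 0.209) and without UB replicate 3 (0.0514) or WD replicate 1 (0.0569), and Smad1 without UB replicate 1 (0.1), UB replicate 2 (0.118), WD replicate 1 (0.0514) or WD replicate 3 (0.117). None of the 3 other probe sets of Smad5 was called in that comparison, and all 3 were called between UB and WD+IM. Neither of the 2 other probe sets of Smad7 was called in UB against WD or in WD+IM against WD. With the mean of probe sets, Smad1 was 0.25 ± 0.13 SE in UB against WD (adjusted p = 0.139). Smad7 was -0.38 ± 0.24 SE in WD+IM against WD (0.317), and neither of these was called. Between WD+IM and WD the 1 call was Smad7 (-0.71 ± 0.21 SE, limma adjusted p = 0.0472), which no fit without 1 of the 9 arrays kept except that without WD replicate 2, with a list median of 0.08. Between UB and WD+IM Smad1 was higher (0.72 ± 0.15 SE, and 0.54 within the high spike set). It was not called with the spike term (adjusted p = 0.147) or on its other probe set. In the same comparison Smad5 (-1.51 ± 0.16 SE) and Smad9 (-2.43 ± 0.37 SE) were lower, with a list median of -0.22.

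Of 4 enzymes that cut ligand or antagonist precursors, 2 were lower in UB than WD, where 19.6% of all genes were lower, with a list median of -0.49. They were Bmp1 (-0.87 ± 0.16 SE), a metalloprotease named as a BMP that cleaves chordin, and Furin (-0.56 ± 0.16 SE), a convertase that matures BMPs and activins. Neither kept its call with median centring, at -0.41 ± 0.22 SE for Bmp1 (adjusted p = 0.151) and -0.10 ± 0.21 SE for Furin (0.732), and Furin was also lost without UB replicate 1 (0.0979), UB replicate 2 (0.0533), WD replicate 1 (0.0591) or WD replicate 3 (0.0707). None of the 4 was called by limma on its chosen probe set between WD+IM and WD (median 0.01, 0 at an unadjusted p under 0.05), and 1, Bmp1, was lower in UB than WD+IM (-1.03 ± 0.16 SE, list median -0.38). The other probe set of Bmp1 was not called in UB against WD. With the mean of its probe sets Bmp1 was -0.47 ± 0.18 SE there (adjusted p = 0.0622). In WD+IM against WD that mean gave 0.57 ± 0.18 SE (0.0461), which was called.

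Genes known to respond to BMP or activin signals were counted in the same way. Of 12 tested, 8 were lower and 2 higher in UB than WD (median -0.95), where 19.6% of all genes were lower and 13.3% higher. Msx2, a homeobox gene induced by BMPs, had means of 457, 1829 and 1376 in UB, WD and WD+IM and fell by 1.87 ± 0.27 SE from WD to UB. Dlx5, also a homeobox gene induced by BMPs, had means of 360, 1684 and 655, the order of Grem1 (UB against WD -2.10 ± 0.32 SE, with the spike term -1.42 ± 0.53 SE, adjusted p = 0.187). Id2, an inhibitor of basic helix-loop-helix factors, was lower in UB than WD on the chosen probe set (-1.11 ± 0.17 SE) and not called on its other probe set, nor with the spike term (-0.45 ± 0.20 SE, adjusted p = 0.262). The 2 higher genes were Id4 (limma adjusted p = 0.00395) and Tgif1 (0.49 ± 0.16 SE), named for this comparison after their values were seen, and with the spike term Id4 was at 0.73 ± 0.38 SE and not called (adjusted p = 0.334). Between WD+IM and WD 1 was higher, Hey1 (2.05 ± 0.33 SE), and 4 lower (median -0.37), where 6.49% of all genes were higher and 8.23% lower. The lower genes were Dlx5 (-1.38 ± 0.32 SE), Skil (-0.70 ± 0.17 SE) and, named after their values were seen, Id1 (-0.49 ± 0.15 SE) and Id4 (-0.84 ± 0.21 SE). The calls of Dlx5, Skil and Id4 were lost in some alternatives, Dlx5 in 4, Skil in 9 and Id4 in 7 of 24, and the alternatives of Id1 are not given here. Dlx5 was -1.15 ± 0.33 SE both with the spike term (adjusted p = 0.052) and within the low spike set (0.0658), and -1.57 ± 0.48 SE with the actin covariate (0.104). Skil was -0.62 ± 0.21 SE within the low spike set (0.108), and Id4 was -0.49 ± 0.29 SE with the actin covariate (0.4) and -0.74 ± 0.24 SE with median centring (0.0618). Among the fits without an array, Dlx5 was not called without WD replicate 2 (adjusted p = 0.0549), Skil without WD replicate 2 (0.0706) or WD+IM replicate 3 (0.0676), and Id4 without WD replicate 1 (0.0661) or WD+IM replicate 2 (0.0723). Between UB and WD+IM 2 were higher, 5 lower and 5 not called (median -0.49), where 13.6% of all genes were higher and 16.6% lower. Id4 had means of 20385, 10429 and 5776, the order of Bmp7, and was higher in the UB (1.84 ± 0.21 SE) on all 4 of its probe sets, and Tgif1 was the other higher gene. Hey1 (-3.58 ± 0.33 SE) and Msx2 (-1.48 ± 0.27 SE) were lower, as were Msx1 (-1.15 ± 0.33 SE), Id2 (-0.77 ± 0.17 SE) and Id3 (-0.58 ± 0.12 SE), these 3 and Tgif1 being named after their values were seen. The Id2 difference was -0.33 ± 0.16 SE with the spike term (adjusted p = 0.241) and -0.41 ± 0.19 SE with median centring (0.118), neither of them called. Within the high spike set it was -0.33.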

How the data were processed

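Biotin-labelled cRNA from 9 tissue pools was run on 1-colour Affymetrix arrays (per the labels' protocols). The deposited values are one linear intensity per probe set and array. Per the submitters' processing notes the authors used GCOS, the Affymetrix software, whose version and algorithm were not given in the sources used here. All 9 arrays share a mean of 2501 once 2% of probe sets are trimmed at each end, so the intensities were scaled before deposit and each difference is relative to the rest of the array. No detection calls were used, and precision is limited by the number of arrays.

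Genes were named through the platform annotation, and 20826 probe sets with 1 symbol were used for names. Probe sets above their array's 40th percentile on at least 3 of 9 arrays were tested (20330 probe sets, 10809 genes, 57 control probe sets left out). Linear models of group alone were fitted in limma 3.58.1 (R 4.3.3) to log2(intensity + 46) of all 9 arrays, with a mean-variance trend, 6 residual and 6.08 prior degrees of freedom, two-sided tests and Benjamini-Hochberg adjustment over all probe sets tested. Every adjusted p of a gene comes from limma. The highest mean log2 value chose a gene's probe set. The fit was tested on simulated data. Named outside the family were, of each pathway list and comparison, up to 3 called genes with the smallest p, and for each tested gene of the family the 3 most correlated genes, passing over provisional symbols. The family, the lists and the markers were chosen with earlier results of these data known. Samples with the same replicate number did not deviate together in every pair, so the number was not used as a block. Alternatives changed the scaling, pseudocount, filter, variance model, arrays in the fit, probe set rule, array set and call rule. They overlap, since in WD+IM against WD the spike term, the low spike set and the fit without WD+IM replicate 3 give the same difference. The 2-fold minimum removes smaller differences whatever their p. The 9 arrays held no identical pair.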

Additional observations from a re-analysis of the deposited data

How the results depend on the processing

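No result of the family or of the named pathway genes changed sign while called. This does not cover Inha, Bmp6, Smad2, Smad3, Id1, Id3, Msx1 and Tgif1, whose alternatives are not given here. Of 565 values of the family under alternatives, 506 kept their side of the threshold, 44 lost a call and 15 gained 1, and of 1550 values of pathway genes these numbers were 1414, 124 and 12. The count of called genes of the family in UB against WD, 5, became 3 with the stricter filter (fewer genes tested), 2 with the spike batch term and 3 with the beta-actin covariate. In UB against WD+IM the count of 7 became 4 with the stricter filter and 4 with the spike batch term, and in WD+IM against WD the count of 3 became 5 with the mean of all probe sets. Fst and Grem1 were the added calls, and Grem1, with a single probe set, kept the same difference there. Apart from the stricter filter, the cause was not tested. Without each array in turn the counts were 4 to 5 in UB against WD, 6 to 7 in UB against WD+IM and 2 to 3 in WD+IM against WD.

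Over all probe sets, the 6073 called in UB against WD became 798 with the spike term, 3276 with the actin covariate, 3004 with a 2-fold minimum, 3743 without UB replicate 1 and 3878 with the mean of probe sets, which tests genes. The 2578 of WD+IM against WD became 1444 within the low spike set, 826 with the actin covariate and 1465 with the 2-fold minimum. The 5176 of UB against WD+IM became 2414 with the spike term and 2980 with the 2-fold minimum.

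For arrays of the same replicate number, correlations of deviations from the tissue mean were 0.07, 0.09 and 0.28 between UB and WD. They were 0.06, -0.05 and -0.28 between WD+IM and WD, and -0.35, -0.08 and -0.34 between UB and WD+IM. UB replicates 1 and 3 and WD+IM replicate 1 correlated best with the WD array of their own number. No UB array did so with WD+IM. With 3 arrays a tissue, these values cannot settle whether the numbers pair the arrays. With the replicate block the counts of called genes of the family were 4 in UB against WD, 3 in WD+IM against WD and 7 in UB against WD+IM, Bmp4 being lost in UB against WD (adjusted p = 0.0584). Weak signals, those of Bmp3 and Inhbb above all, limit what can be said, since background was not measured apart.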
